A study of Mus musculus and Homo sapiens with 81 samples.

Results

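NF-kB is a family of dimeric transcription factors that switch on inflammatory and survival genes. Its core was followed here through 10 genes: the subunit genes Rela, Relb, Nfkb1 and Nfkb2, the inhibitor genes Nfkbia, Nfkbib and Nfkbie, the co-regulator gene Bcl3, and Tnfaip3 and Birc3, whose products act on ubiquitin chains upstream of the factor. They were taken by gene symbol from the count tables, with upper-case symbols in the human ones. All 10 were found among 23336 mouse genes and among 23227 human genes, and all 10 passed the filter on low counts in each of the 5 cell lines.

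In resting cells the IkB proteins encoded by Nfkbia, Nfkbib and Nfkbie hold Rel dimers in the cytoplasm, and receptors such as that for TNF activate a kinase complex that marks IkB for degradation and frees dimers of RelA with p50, the product of Nfkb1. A slower non-canonical branch processes the product of Nfkb2 to p52, which pairs with RelB. Many of these genes are themselves NF-kB targets, so the pathway resupplies its own inhibitors, among them A20 (the product of Tnfaip3), which trims ubiquitin chains on signalling complexes.

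The data were 81 poly(A) RNA-seq libraries of cultured cancer cells, every one expressing Cas9 and infected with a lentivirus that carried either the guide Ptpn2sg3 (genotype Ptpn2ko) or a non-targeting guide (Bro3 in mouse cells, Bro4 in human cells; genotype Control). Ptpn2 encodes a tyrosine phosphatase that dampens JAK-STAT signalling, and the study asked what its loss does to cytokine responses. Mouse B16 melanoma cells received vehicle (PBS with BSA), 1000 U/mL interferon-beta (IFNb), 100 ng/mL interferon-gamma (IFNg), 10 ng/mL tumour necrosis factor (TNFa) or a pair of these for 48 h, which gave 14 groups of 3 libraries in both genotypes together. Human A375 and MelJuSo (melanoma), A549 (lung cancer) and HT29 (colon cancer) cells of both genotypes received vehicle or 100 ng/mL IFNg for 48 h, in groups of 3 libraries in A375 and MelJuSo (2 in the A375 control vehicle group) and 2 in A549 and HT29. Each genotype in each line rests on 1 guide, and nothing in the labels tells if a replicate was its own culture. The spread that the p-values rest on is the spread among these libraries and may be technical.

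The 8 mouse members for which RefSeq promoter sequence was at hand (GRCm38.p6; 250 bases before to 50 after a start site, 11 windows; none for Nfkb1 and Relb) were searched on both strands for the NF-kB consensus, named here as the kB consensus. It was found in 5 of the 8 genes, Nfkbia, Nfkbie, Tnfaip3, Nfkb2 and Bcl3, and in none of the windows of Nfkbib, Rela and Birc3; of all 32851 windows of that length 4.51% held it, as did 5.14% of 27025 genes. The matches are shown 5′ to 3′ on the strand of the gene, and whether they bear on the responses described next was not tested. Capitals mark the bases that match the consensus on either strand. Where more than 30 bases of a stretch lie in an annotated UTR, only the match and a few neighbouring bases are given. A further Nfkb2 match, on the minus strand 236 bases before another of its start sites, is not printed.
Nfkbia promoter, chr12:55492648-55492716 (minus strand): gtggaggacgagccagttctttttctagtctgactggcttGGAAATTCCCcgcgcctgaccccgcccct
Nfkbie promoter, chr17:45555554-45555643 (plus strand): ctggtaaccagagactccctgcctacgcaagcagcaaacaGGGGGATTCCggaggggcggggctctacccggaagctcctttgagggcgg
Tnfaip3 promoter, chr10:19015411-19015575 (minus strand): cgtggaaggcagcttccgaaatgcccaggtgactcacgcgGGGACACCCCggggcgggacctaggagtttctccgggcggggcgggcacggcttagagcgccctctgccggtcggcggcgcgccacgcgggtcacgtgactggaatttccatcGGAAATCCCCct
Nfkb2, chr19:46304693-46304713 (plus strand): gtcacGGGAATTCCCCccctc
Nfkb2, chr19:46304721-46304736 (plus strand): cgaaaGGGGCTTTCCc
Nfkb2, chr19:46305700-46305719 (plus strand): ttttcGGGACTTTCCtaagc
Bcl3 promoter and start, chr7:19822744-19822793 (minus strand): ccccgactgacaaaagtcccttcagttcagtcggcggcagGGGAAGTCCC
In Nfkb2 a pair of overlapping matches shares the run of 11 capitals. The core pattern of the interferon-stimulated response element (GAAA, then NN for any bases, then GAAA) was in none of the 11 windows (3.44% of all windows), and the STAT pattern TTCNNNGAA in 1 window of Nfkb2 (8.3% of all windows), away from the kB matches. A match describes these letters only.

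On GRCm38 (GENCODE M21) the inhibitor genes lie on chromosome 12 at 55489410 to 55492647 (Nfkbia), chromosome 7 at 28758251 to 28767512 (Nfkbib) and chromosome 17 at 45555703 to 45563169 (Nfkbie). The subunit genes Nfkb2 and Rela both lie on chromosome 19, at 46304320 to 46312385 and at 5637483 to 5648130, with Nfkb1 on chromosome 3 at 135584655 to 135691547 and Relb on chromosome 7 at 19606217 to 19629438. Bcl3 lies close to Relb, on chromosome 7 at 19808462 to 19822770, with Tnfaip3 on chromosome 10 at 19000910 to 19015657 and Birc3 on chromosome 9 at 7848699 to 7873186. Exons of Nfkbib, Nfkb2 and Bcl3 overlap genes on the opposite strand (314 bases with Ccer2, 531 with AC114539.1 and 161 with Gm16175, at the most). The strand setting of the authors' counting is not given in the sources used here, so reads in those bases cannot be assigned with certainty.

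Libraries held 3498860 to 6432517 counts in B16 and 4191317 to 9605776 in the human lines. In B16, 5 libraries stood apart from both others of their group (control replicate 1 of IFNb with TNFa, control replicate 2 of IFNb with IFNg, and Ptpn2ko replicates 1 of TNFa, 3 of IFNb with IFNg and 1 of IFNg with TNFa). Calls of members that change without them are given beside the result. Ptpn2 itself was at 44.7 to 61.9 CPM (the usual depth-scaled count unit, here with TMM scaling) in control B16 libraries and 8.23 to 16.4 in Ptpn2ko ones, and lower in Ptpn2ko cells of A549, HT29 and MelJuSo. In A375 it went against the labels under vehicle (11.9 and 12.1 CPM in the libraries labelled control, 24.1, 25.1 and 24.2 in those labelled Ptpn2ko). A375 libraries are therefore named by their labels and genotype directions there are not interpreted. Melanocyte genes summed to 6800 CPM or more in every B16 library and 3460 or more in MelJuSo but to 285 at most in A375, where TYR and DCT were nearly absent. The 6 leukocyte genes summed to 6.25 CPM at most outside HT29. In HT29 they summed to 1980 to 2980 CPM, although PTPRC, CD3E and CSF1R were near 0. The HT29 sum thus came from the remaining genes of that list, and which of them carried it was not separated. The labels of HT29 control IFNg replicate 1 name HT29 as the line but lung as the cell type. Colon genes summed to 487 CPM or more in all HT29 libraries.

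**Figure D1:**
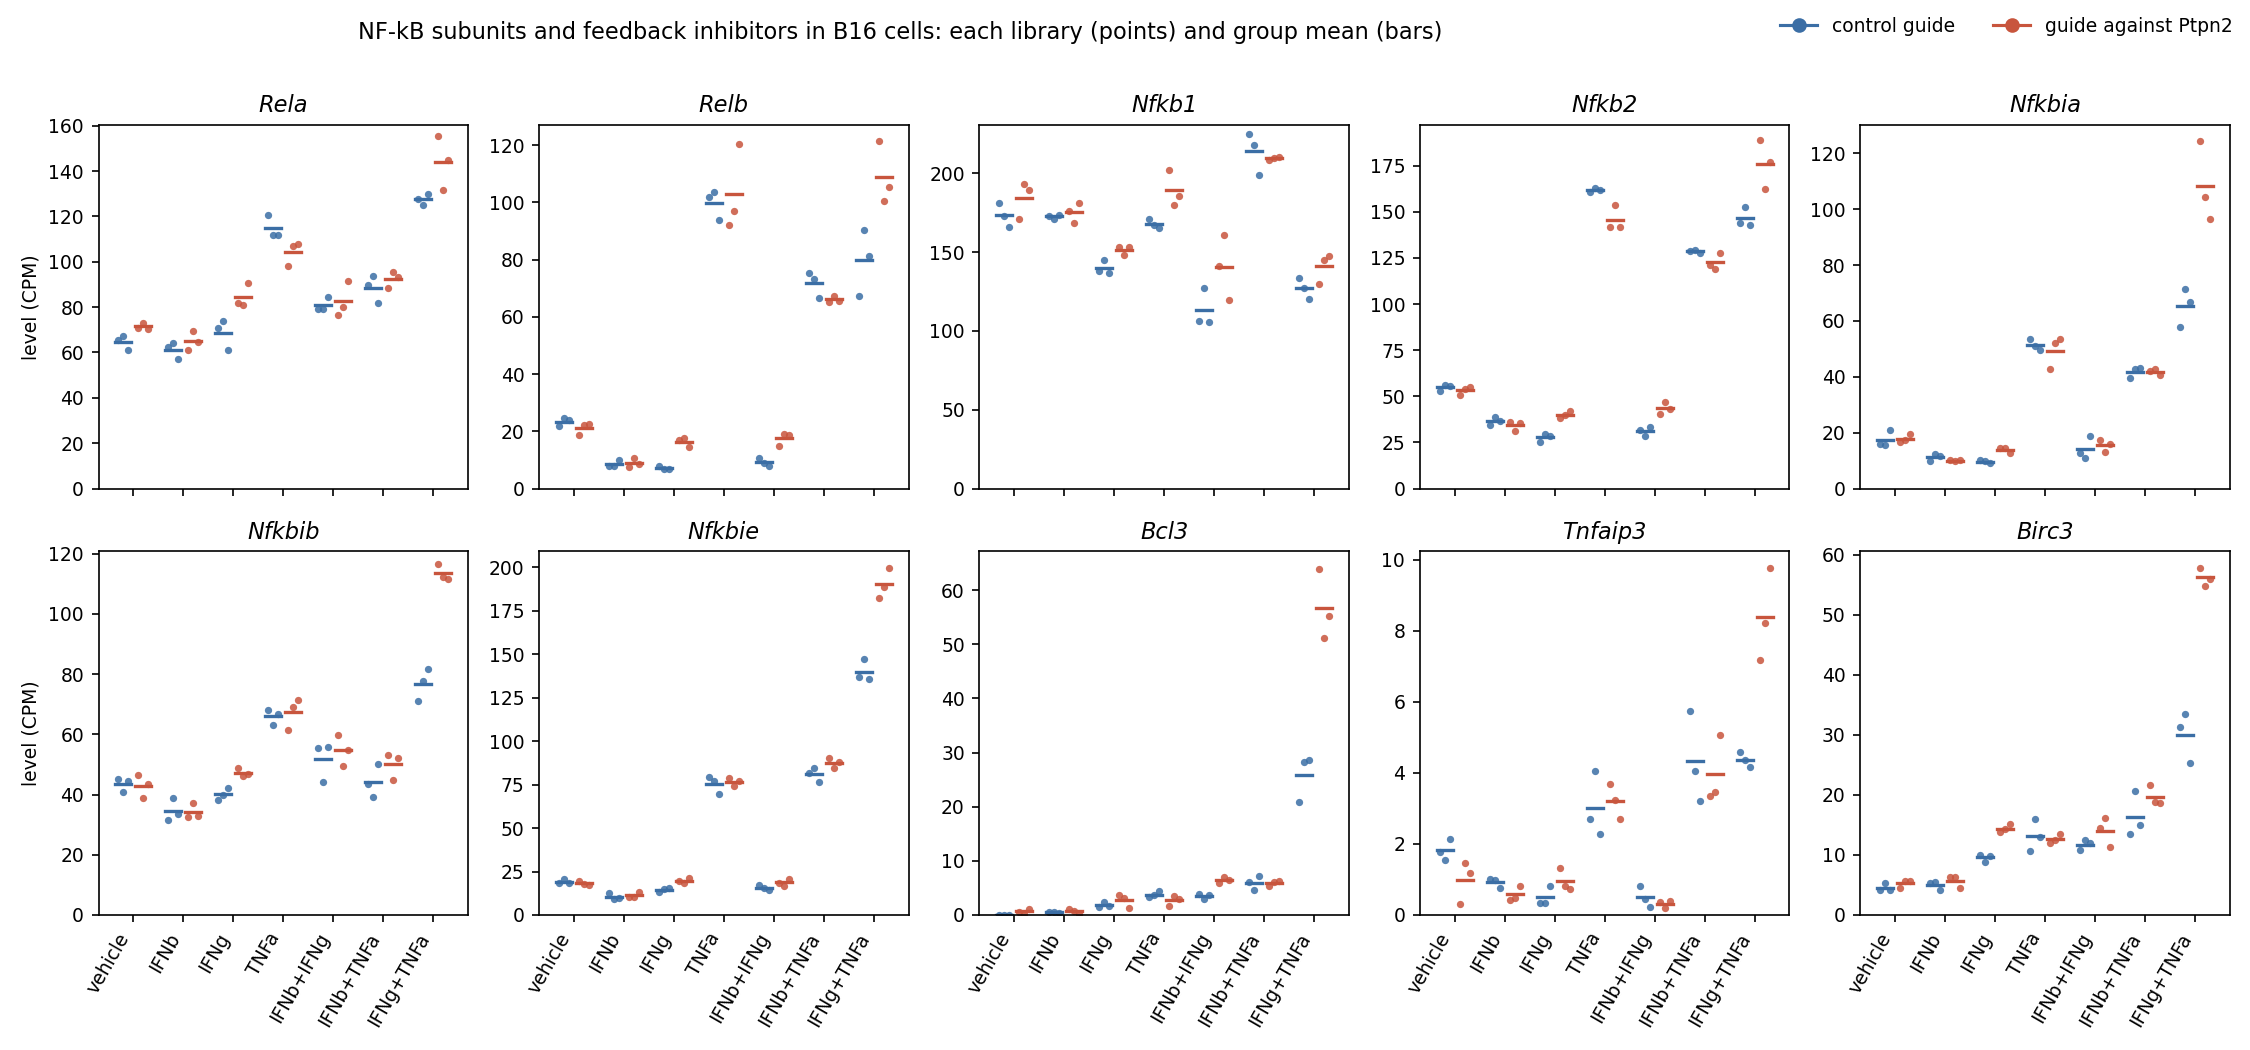
CPM of each member in the 42 B16 libraries, by treatment (x axis), with control cells and Ptpn2ko cells in separate colours, 1 point per library and a bar at each group mean. Bcl3 reads 0 in all 3 control vehicle libraries and 51.1 to 64.0 CPM in Ptpn2ko cells under IFNg with TNFa, while Nfkb1 stays between 106 and 225 CPM in all 42.

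TNFa raised most of the family in control B16 cells: Relb, Nfkb2, Rela, the 3 IkB genes, Bcl3 and Birc3 rose, and Nfkb1 and Tnfaip3 did not pass the test. Of the 10 members 8 were called higher (adjusted p under 0.05 in edgeR's quasi-likelihood test, Benjamini-Hochberg over 11726 genes) and none lower, where 24.7% of all tested genes were called higher; the members' median log2 fold change was 1.55 and that of all genes 0.0452. Relb, the subunit of the non-canonical dimer, stood at 21.7, 24.6 and 24.0 CPM under vehicle and 102, 104 and 93.9 under TNFa, a log2 fold change of 2.09 ± 0.11 (SE; adjusted p = 2.52e-22). Its partner gene Nfkb2 stood at 52.7, 56.3 and 55.6 CPM under vehicle and 161, 163 and 162 under TNFa (1.56 ± 0.07). In both genes every TNFa library lay above every vehicle library, by a gap many times the spread within a group. Rela, the main transactivating subunit, rose less, from 65.3, 67.2 and 61.0 CPM to 120.5, 112 and 112 (0.83 ± 0.07). Nfkb1 stood at 181, 173 and 166 CPM against 171, 168 and 165, with overlapping groups (-0.05 ± 0.07, adjusted p = 0.604), although with each library's trend on transcript length removed the sign turned (0.24, adjusted p = 0.000341).

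Among the inhibitors under TNFa, Nfkbie (IkB epsilon) changed most, from 18.2, 20.5 and 18.2 CPM to 79.5, 77.1 and 69.7 (1.99 ± 0.09, adjusted p = 3.17e-24). Nfkbia (IkB alpha, the inhibitor that is resynthesised fastest after stimulation) rose from 16, 15.6 and 21.0 CPM to 53.5, 51.1 and 49.6 (1.53 ± 0.12). Nfkbib (IkB beta) rose least of the 3, from 45.2, 40.7 and 44.4 CPM to 68.1, 63.1 and 66.8 (0.60 ± 0.09). The IkB genes thus all moved upwards. Bcl3, a nuclear IkB relative that binds p50 and p52, had no count in the 3 control vehicle libraries, which allows at most 0.184 CPM over the group. Under TNFa it stood at 3.26, 3.68 and 4.36 CPM, a rise of at least 20.4-fold over a floor of 3 counts for the group. Birc3 (cIAP2, a ubiquitin ligase recruited to TNF receptors) rose from 4.15, 5.26 and 4.11 CPM to 10.6, 16 and 13.1 (1.58 ± 0.20). Tnfaip3 was near the limit of detection at 1.78, 1.56 and 2.14 CPM against 2.71, 4.05 and 2.28, groups that did not overlap but did not pass the test (0.73 ± 0.33, adjusted p = 0.0656) except without TNFa replicate 3 (0.88, adjusted p = 0.0449).

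Both interferons lowered more members than they raised. IFNb lowered 5 of the 10 members and raised 1, where 13.5% and 17.0% of all genes were called lower and higher, with a members' median of -0.461 against 0.0216 over all genes. IFNg lowered 6 and raised 2 (all genes 17.9% lower and 20.0% higher; medians -0.341 and 0.0047). In bulk RNA, fewer cells of a kind and less RNA per cell cannot be told apart. These comparisons, like all of those against vehicle in control B16 cells, share the same 3 vehicle libraries.

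Relb fell to 7.77, 7.75 and 10.1 CPM under IFNb (-1.45 ± 0.16, adjusted p = 1.44e-10) and 7.96, 6.80 and 6.81 under IFNg (-1.70 ± 0.16, adjusted p = 6.21e-13), all below the lowest vehicle library at 21.7. Nfkb2 fell with it, to 34.3, 38.7 and 36.6 CPM under IFNb (-0.59 ± 0.08) and 25.5, 29.5 and 28.5 under IFNg (-0.98 ± 0.08). Both genes of the non-canonical dimer were thus lower under either interferon. Rela did not pass the test under either (-0.07 ± 0.08 and 0.10 ± 0.08), and Nfkb1 fell under IFNg (-0.31 ± 0.07), with an adjusted p of 0.976 under IFNb. Nfkbia fell to 9.97, 12.3 and 11.6 CPM under IFNb (-0.65 ± 0.16) and 10.1, 9.88 and 9.07 under IFNg (-0.86 ± 0.16).

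Nfkbie stood at 12.8, 9.34 and 9.57 CPM under IFNb (-0.83 ± 0.13) and 13.4, 15.1 and 15.5 under IFNg (-0.37 ± 0.12); the IFNg call was lost without control vehicle replicate 2 or control IFNg replicate 1 (-0.31 in each fit, adjusted p = 0.0615 and 0.0654). Nfkbib was called only under IFNb (-0.33 ± 0.10), and not without control IFNb replicate 1 (-0.27, adjusted p = 0.0712). Tnfaip3 fell to 0.332, 0.324 and 0.825 CPM under IFNg, 8 counts over the group against 30 under vehicle (-1.92 ± 0.49, adjusted p = 0.00123), and stood at 1.01, 0.993 and 0.751 under IFNb (-0.98 ± 0.42, adjusted p = 0.0734). Among control groups A20 transcripts were fewest in cells given interferon without TNFa. Bcl3 and Birc3 were the members that rose. Bcl3 was at least 2.67-fold higher under IFNb (8 counts over the group against 0) and at least 10.1-fold higher under IFNg than its floor. Birc3 rose under IFNg to 9.95, 8.91 and 9.90 CPM (1.09 ± 0.20) and did not pass the test under IFNb (0.17 ± 0.24).

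**Figure D2:**
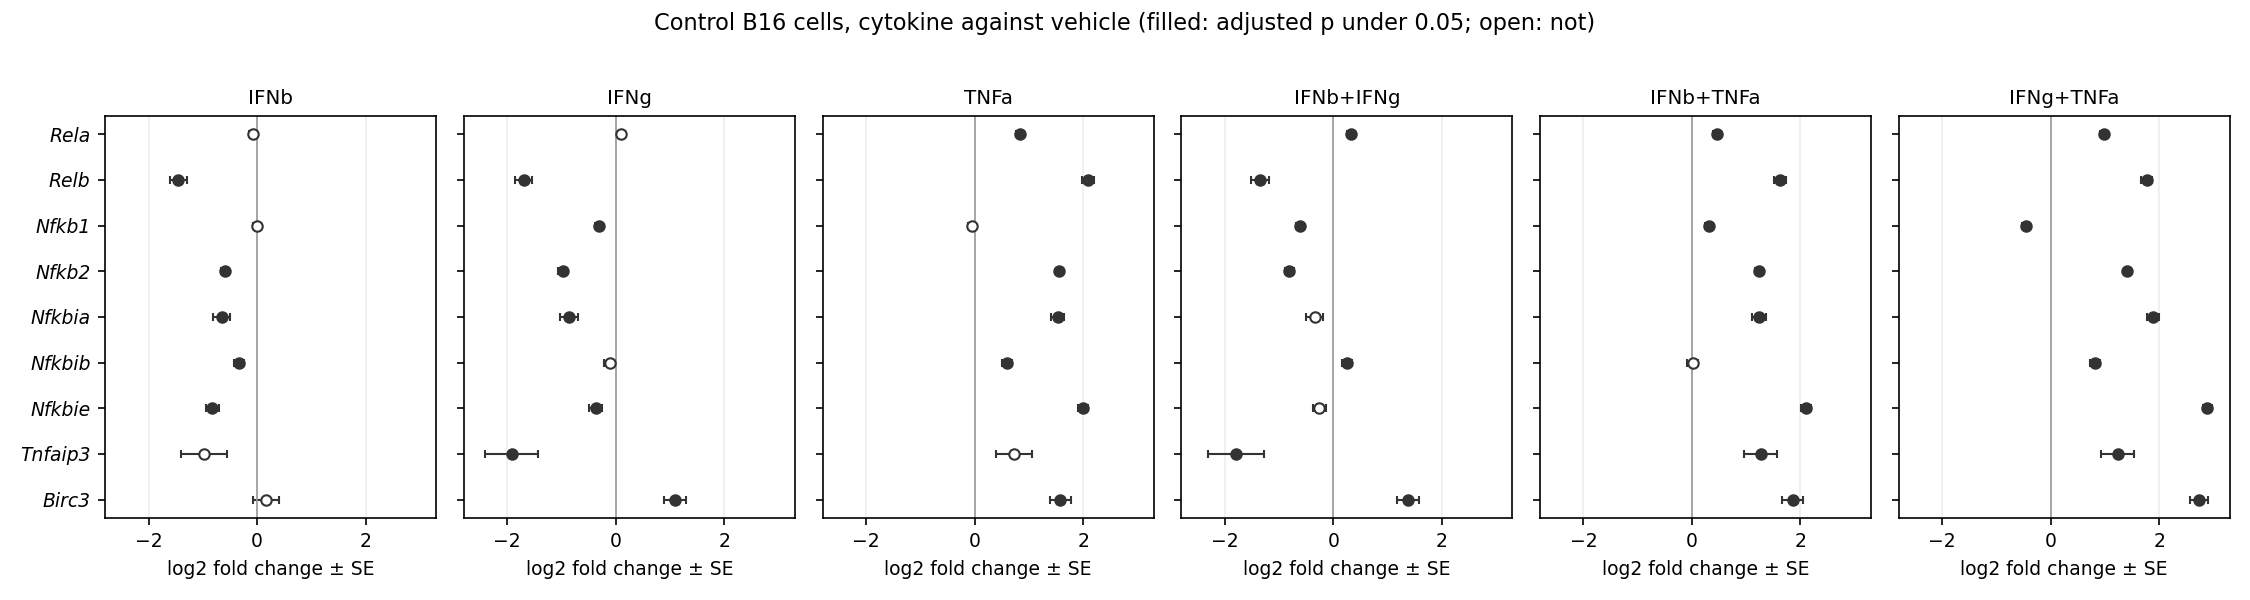
Log2 fold change against vehicle (x axis, bars show ± SE) of 9 members (y axis) in control B16 cells, 1 panel per cytokine or pair, with filled points for calls and open points for the rest. Bcl3 is left out because its vehicle group has no counts; Relb sits at -1.45 and -1.70 in the IFNb and IFNg panels and at 2.09 in the TNFa panel.

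Other genes of the pathway were taken from lists named in the processing notes. The shares of all genes called higher, and for the interferons lower, are given above. Under TNFa 23.0% of all genes were called lower. Of 18 tested genes for receptors, adaptors and kinases, 11 were called higher and 2 lower under IFNg, led by Rnf31 (2.38 ± 0.10; a subunit of the linear ubiquitin ligase complex), the TNF receptor gene Tnfrsf1a (1.38 ± 0.06) and Ripk1 (1.12 ± 0.07). Under TNFa the same list had 7 higher and 3 lower, with the kinase gene Map3k14 at 0.89 ± 0.22. Of 11 tested genes for other family members and ubiquitin-linked inhibitors, 5 rose under IFNg (the deubiquitinase gene Cyld 0.98 ± 0.08) and 4 rose and 2 fell under TNFa (Tnip1, an A20 partner, 1.08 ± 0.07; Rel, the remaining subunit gene, -1.49 ± 0.32). Of 13 tested target genes outside the family, 8 rose and 1 fell under TNFa, among them Tnfrsf9 (3.33 ± 0.31) and Csf1 (1.75 ± 0.11), and 6 rose under IFNg, with Csf1 at 3.11 ± 0.09. Under IFNb the lists had 5 higher and 1 lower of 18, 1 higher of 11, and 3 higher and 1 lower of 13. The 3 lists had medians of 0.165, 0.105 and 0.81 under TNFa (all genes 0.0452), 0.302, 0.13 and 0.685 under IFNg (0.0047) and 0.0232, 0.0502 and 0.417 under IFNb (0.0216).

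Each pair of cytokines was also compared with vehicle in control cells. IFNg with TNFa raised 9 members and lowered 1, so that all 10 were called, where 36.0% and 33.3% of all genes were called higher and lower (medians 1.59 and 0.0317). IFNb with TNFa raised 9 and lowered none (all genes 21.6% higher; medians 1.25 and 0.0257). IFNb with IFNg raised 4 and lowered 4 (all genes 34.3% higher and 31.1% lower; medians -0.298 and 0.044), counts near those shares.

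Under IFNg with TNFa, Nfkbie reached 137, 147 and 136 CPM (2.88 ± 0.08, 7.38-fold over vehicle) and Nfkbia 58.0, 71.3 and 66.9 CPM (1.89 ± 0.12). Bcl3 reached 20.9, 28.2 and 28.6 CPM, at least 140-fold above its floor and above all other control groups, of which the highest library held 7.20 CPM under IFNb with TNFa. Birc3 reached 31.3, 33.5 and 25.3 CPM (2.73 ± 0.17, 6.65-fold). All 3 libraries of that group were the highest control libraries for each of these 4 genes. Relb, at 67.4, 90.4 and 81.4 CPM (1.77 ± 0.11), and Nfkb2, at 144, 153 and 143 CPM (1.42 ± 0.07), stood no higher than under TNFa alone. Nfkb1 was the member that fell, to 134, 127 and 121 CPM (-0.45 ± 0.07, and -0.17 with the length trend removed). Tnfaip3 rose to 4.59, 4.37 and 4.16 CPM (1.23 ± 0.30), Nfkbib rose by 0.82 ± 0.09 and Rela by 0.98 ± 0.07. Target genes outside the family rose in 11 of 13 (median 3.67), with Tnfrsf9 at 5.38 ± 0.23. Receptor, adaptor and kinase genes rose in 13 of 18 with 2 lower (median 0.528), and the other family members and inhibitors in 7 of 11 with 2 lower (median 0.719).

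Under IFNb with TNFa, against vehicle, the log2 fold changes were Nfkbie 2.10 ± 0.09, Relb 1.62 ± 0.11, Nfkbia 1.24 ± 0.13, Nfkb2 1.23 ± 0.07 and Birc3 1.86 ± 0.19, with Bcl3 at least 32.5-fold above its floor. Nfkb1 rose here, to 225, 218 and 199 CPM (0.31 ± 0.07), and Tnfaip3 to 5.73, 4.06 and 3.20 CPM (1.27 ± 0.31); Nfkbib was not called (0.01 ± 0.10). Under IFNb with IFNg, Relb (-1.35 ± 0.16), Nfkb2 (-0.81 ± 0.08), Nfkb1 (-0.62 ± 0.07, and -0.33 with the length trend removed) and Tnfaip3 (-1.79 ± 0.51) were lower, and Birc3 (1.38 ± 0.20), Rela (0.33 ± 0.08) and Bcl3 (at least 19.1-fold) higher. The remaining call, Nfkbib (0.25 ± 0.10, adjusted p = 0.0186), was lost without control replicate 1 or 3 of IFNb with IFNg or control vehicle replicate 2 (0.18, 0.19 and 0.18), by DESeq2 (0.23), with no filter on low counts (0.20), when fitted on these groups alone (0.24) and with the length trend removed (adjusted p = 0.818).

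Each pair was tested for the departure of its log2 effect from the sum of the single ones, for 9 members. Bcl3 was left out, since it has no counts under vehicle. For a gene that both parts lower, a value above the sum means less lowering than the sum. For IFNg with TNFa, 6 of the 9 lay above the sum and none below (all genes 10.5% above): Tnfaip3 2.42 ± 0.56, Relb 1.38 ± 0.19, Nfkbie 1.27 ± 0.14, Nfkbia 1.22 ± 0.19, Nfkb2 0.84 ± 0.10 and Nfkbib 0.34 ± 0.13. IFNg alone had lowered 5 of these 6 (all but Nfkbib), and under the pair all 6 stood above vehicle. Birc3 (0.06 ± 0.27), Rela (0.06 ± 0.10) and Nfkb1 (-0.09 ± 0.10) showed no called departure. The call of Nfkbib (adjusted p = 0.0437) was lost in 7 of the 12 fits that left out 1 library, at 0.31 to 0.35. These were without control TNFa replicate 2 or 3, IFNg with TNFa replicate 2 or 3, vehicle replicate 1 or 3, or IFNg replicate 1.

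The other pairs departed as well, in both directions. For IFNb with IFNg, 6 members lay above the sum and 1 below (all genes 20.9% above and 25.9% below). They were Relb 1.80 ± 0.26, Nfkbia 1.18 ± 0.23, Nfkbie 0.94 ± 0.18, Nfkb2 0.76 ± 0.12, Nfkbib 0.70 ± 0.14 and Rela 0.30 ± 0.11 above, and Nfkb1 (-0.30 ± 0.10) below. The call of Rela ended without control IFNb replicate 3, IFNg replicate 3 or vehicle replicate 1 or 2 (0.22 to 0.26), and that of Nfkb1 without replicate 1 or 3 of the pair (-0.24 in each). With the length trend removed neither was called (Rela 0.13, adjusted p = 0.333; Nfkb1 0.083, adjusted p = 0.434), nor was Rela with no filter on low counts (0.27). Relb, with the largest departure, stood no lower under both interferons than under IFNg alone. For IFNb with TNFa, 5 lay above and 1 below (all genes 14.8% and 11.5%), with Relb at 0.98 ± 0.19 and Nfkbie at 0.93 ± 0.15. The call of Tnfaip3 (1.52 ± 0.51) ended without replicate 1 of the pair or replicate 3 of control IFNb, TNFa or vehicle (1.26 to 1.42). That of Nfkb2 (0.26 ± 0.10) ended without replicate 2 of the pair, IFNb replicate 1, TNFa replicate 1 or 2 or vehicle replicate 2 or 3 (0.24 to 0.27). That of Rela (-0.29 ± 0.11) ended in 9 of the 12 fits without 1 library, all but those without replicate 2 of the pair, IFNb replicate 3 or TNFa replicate 2 (-0.30 to -0.22). Nfkb1 was called at 0.36 ± 0.10, and at 0.07 was not with the length trend removed. Without the libraries that stand apart, Tnfaip3 (1.27, adjusted p = 0.0869) and Rela (-0.26, adjusted p = 0.0521) were not called for that pair, and Nfkbia was (0.45, adjusted p = 0.0491, against 0.36 and 0.165 with all libraries). DESeq2 called none of Tnfaip3, Nfkb2 and Rela there (1.54, 0.27 and -0.28). Nfkb2 was not called with no filter on low counts (0.30), the replicate block (0.26) or the length trend removed (0.26), nor Rela with no filter (-0.25) or the length trend removed (-0.19).

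**Figure D3:**
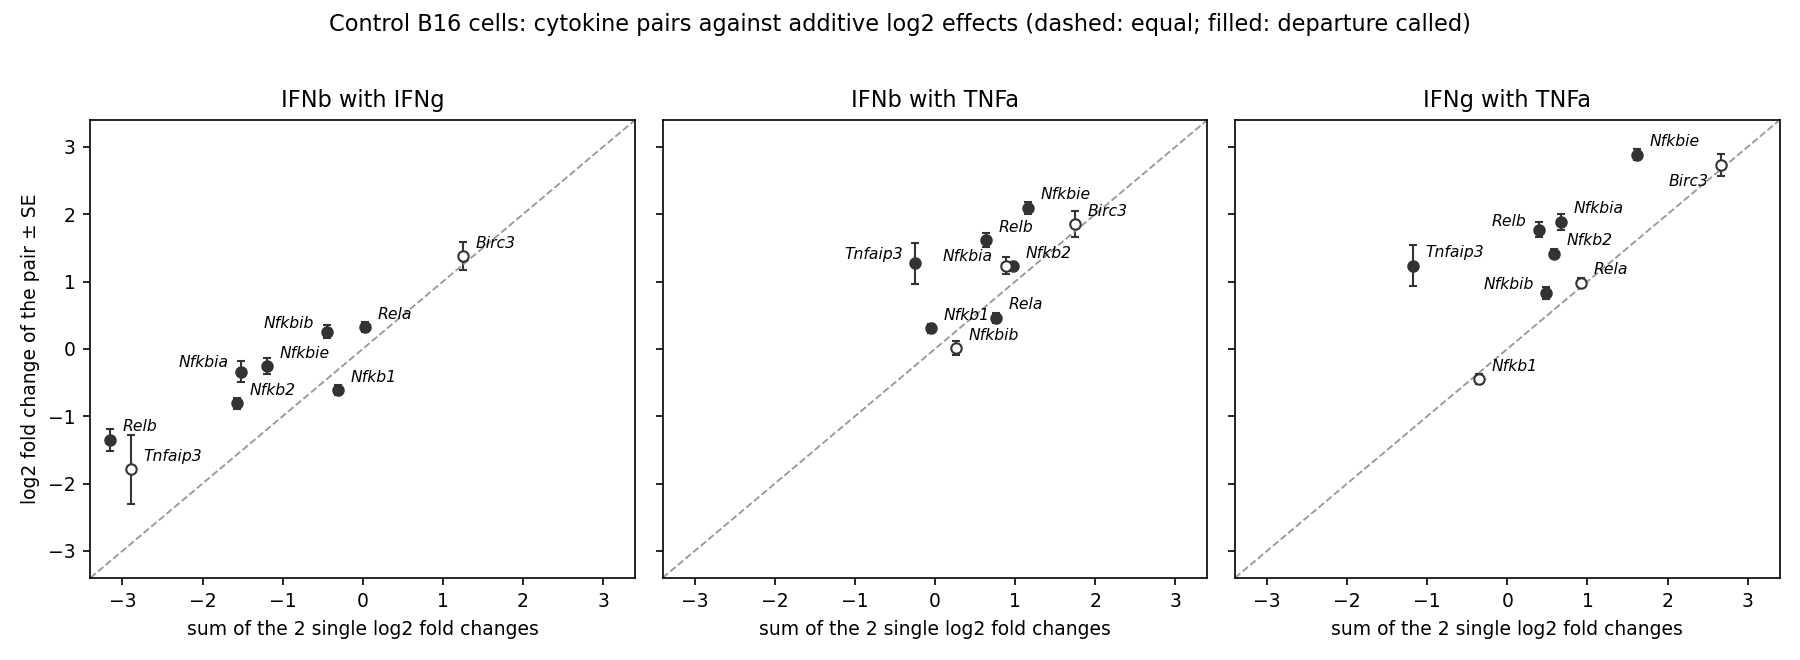
Log2 fold change of each pair against vehicle (y axis, bars show ± SE) plotted against the sum of the log2 fold changes of its parts (x axis) for 9 members in control B16 cells, 1 panel per pair; on the dashed line both are equal and filled points mark called departures. Relb and Nfkbia lie above the line in the panel of IFNg with TNFa by 1.38 and 1.22, and Birc3 lies on it (0.06).

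Apart from Bcl3 under vehicle, the members called between the genotypes in B16 were called in treatments with IFNg, and they were higher in Ptpn2ko cells. Under vehicle 1 member was called higher in Ptpn2ko cells (all genes 1.91% higher), and under IFNb, TNFa and IFNb with TNFa none of 10 was called in either direction (all genes 0.554%, 0.938% and 0.597% called). Under IFNg 6 were higher, under IFNb with IFNg 4 and under IFNg with TNFa 9, and none lower (all genes 17.7%, 19.2% and 20.3% higher; members' medians 0.492, 0.248 and 0.505 against -0.00318, -0.00811 and -0.00938 over all genes). At an unadjusted p under 0.05, the treatments with no call had 0 members (IFNb), 2 (TNFa) and 0 (IFNb with TNFa), and DESeq2 also called none there. Over all B16 comparisons DESeq2 gave an adjusted p for 199 of 211 tests of members, and a member without one counts as not called. The vehicle call was Bcl3, at 0.633, 0.208 and 1.18 CPM in Ptpn2ko cells against 0 in all 3 control libraries, at least 3.66-fold. It rests on 12 counts and was lost without any 1 of the control vehicle libraries or without Ptpn2ko vehicle replicate 3 (adjusted p = 0.0692, 0.0682, 0.1 and 0.148).

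Under IFNg, Relb stood at 16.8, 17.8 and 14.6 CPM in Ptpn2ko cells against 7.96, 6.80 and 6.81 in control cells (1.18 ± 0.18, adjusted p = 2.43e-07), that is between the IFNg-treated and the vehicle level of control cells (21.7 to 24.6). Nfkb2 stood at 38.1, 39.9 and 42 CPM against 25.5, 29.5 and 28.5 (0.53 ± 0.09), and Rela at 81.8, 80.9 and 90.5 against 71.0, 73.7 and 61.0 (0.30 ± 0.07). Among inhibitors, Nfkbia (14.4, 14.5 and 12.8 CPM against 10.1, 9.88 and 9.07; 0.51 ± 0.17, adjusted p = 0.0154) and Nfkbie (19.7, 18.2 and 21.1 against 13.4, 15.1 and 15.5; 0.43 ± 0.12) were higher. Of the 6 genes that IFNg lowered in control cells, 4 were thus higher in Ptpn2ko cells. Birc3 was higher too, at 13.8, 14.3 and 15.1 CPM against 9.95, 8.91 and 9.90 (0.59 ± 0.16). Groups overlapped in Tnfaip3 (0.96 ± 0.58, adjusted p = 0.214) and Bcl3 (0.47 ± 0.36, adjusted p = 0.336), and Nfkbib stayed just short of a call (0.24 ± 0.10, adjusted p = 0.0501), which it passed by DESeq2 (0.26), without control IFNg replicate 3 (0.28), with the replicate block (0.23), when fitted on these groups alone (0.24), with the length trend removed (0.24) and without the libraries that stand apart (0.25).

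Under IFNg with TNFa, Bcl3 stood at 64.0, 51.1 and 55.2 CPM in Ptpn2ko cells against 20.9, 28.2 and 28.6 in control cells (1.13 ± 0.13, 2.18-fold, adjusted p = 1.27e-10), and Birc3 at 57.9, 54.9 and 55.9 CPM against 31.3, 33.5 and 25.3 (0.91 ± 0.11, adjusted p = 6.65e-10). Nfkbia stood at 124, 104 and 96.6 CPM against 58.0, 71.3 and 66.9 (0.73 ± 0.09, adjusted p = 2.14e-09). These were the highest levels of each gene in any B16 group, with no library of another group reaching them. Nfkbib (116, 112 and 112 CPM against 70.9, 77.7 and 81.7; 0.56 ± 0.08) and Nfkbie (182, 189 and 199.7 against 137, 147 and 136; 0.44 ± 0.06) were also higher. Tnfaip3, the A20 gene, stood at 7.17, 8.21 and 9.75 CPM against 4.59, 4.37 and 4.16 (0.94 ± 0.22). The subunit genes Relb (0.45 ± 0.09), Nfkb2 (0.27 ± 0.06) and Rela (0.18 ± 0.07) were higher as well, and Nfkb1 was not called (0.15 ± 0.07, adjusted p = 0.0846). The library that stands apart in this group, Ptpn2ko replicate 1, moves the Rela call, which was lost without it (0.13, adjusted p = 0.14) and without Ptpn2ko replicate 3 or control replicate 2 (0.18 and 0.16), with no filter on low counts (adjusted p = 0.0518) and with only these groups in the fit (0.0797). Without all 5 such libraries Nfkb1 was called (0.22, adjusted p = 0.0018).

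With IFNb and IFNg together, Relb (14.8, 19.2 and 18.6 CPM in Ptpn2ko cells against 10.7, 8.80 and 7.94; 0.92 ± 0.17), Nfkb2 (0.47 ± 0.09), Nfkb1 (0.31 ± 0.07) and Bcl3 (5.88, 7.02 and 6.54 CPM against 3.90, 2.93 and 3.74; 0.86 ± 0.27) were higher. Nfkb1 libraries of the genotypes overlapped, and its call was lost with only these groups in the fit (0.32, adjusted p = 0.0742). Birc3 was not called (0.25, adjusted p = 0.232) except without the libraries that stand apart (0.47, adjusted p = 0.0372).

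In treatments without IFNg the values of single members in both genotypes were as follows. Under TNFa, Relb stood at 92.2, 96.8 and 120.3 CPM in Ptpn2ko cells against 102, 104 and 93.9 in control cells, and Nfkbie at 78.7, 74.4 and 77.0 against 79.5, 77.1 and 69.7. Under IFNb, Relb stood at 7.63, 10.6 and 8.76 CPM against 7.77, 7.75 and 10.1. In all 3 cases libraries of the genotypes overlapped. Nfkbia under IFNb with TNFa was at 42.1, 42.8 and 40.6 CPM against 39.6, 42.9 and 43.2. Nfkb2 under TNFa was at 142, 153 and 142 CPM against 161, 163 and 162, groups that did not overlap and whose difference was not called (-0.15 ± 0.06, adjusted p = 0.25). Rela groups did not overlap in that treatment either (98.3 to 107.8 CPM against 111.8 to 120.5). Nfkb1 also separated under TNFa, in the other direction (180 to 202 CPM against 165 to 171). Rela under vehicle separated too (70.5 to 73.1 CPM against 61.0 to 67.2), and none of these differences was called.

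**Figure D4:**
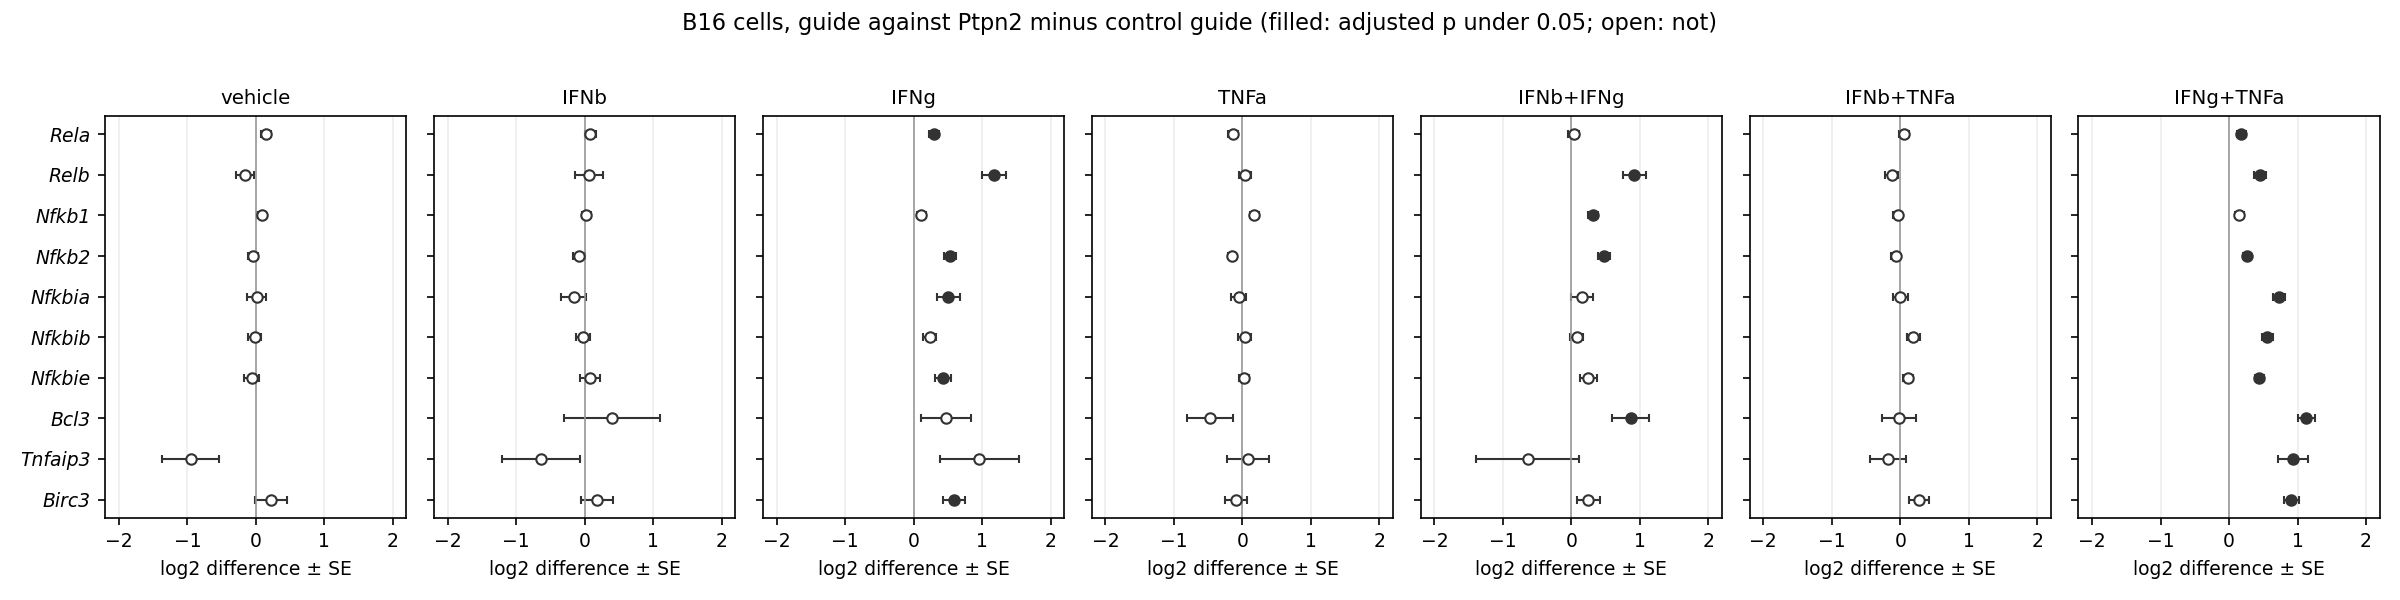
Log2 fold change of Ptpn2ko against control B16 cells (x axis, bars show ± SE) for each member (y axis), 1 panel per treatment, with filled points for calls; Bcl3 is left out under vehicle, where control cells have no counts. Filled points number 6, 4 and 9 in the panels of IFNg, IFNb with IFNg and IFNg with TNFa. The panels of IFNb, TNFa and IFNb with TNFa hold none.

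The dependence of the genotype difference on the cytokine was tested as an interaction, again in 9 members. Under IFNg with TNFa 7 members had a genotype difference shifted upwards from that under vehicle (all genes 11.0% higher), every one but Nfkb1 and Rela. The values were Tnfaip3 1.89 ± 0.47, Nfkbia 0.72 ± 0.17, Birc3 0.69 ± 0.26, Relb 0.60 ± 0.16, Nfkbib 0.57 ± 0.12, Nfkbie 0.50 ± 0.13 and Nfkb2 0.31 ± 0.09. Under IFNg 4 did (all genes 9.07%): Tnfaip3 1.91 ± 0.72, Relb 1.33 ± 0.22, Nfkb2 0.57 ± 0.11 and Nfkbie 0.49 ± 0.16. Under IFNb with IFNg 2 did (all genes 6.69%), Relb 1.07 ± 0.22 and Nfkb2 0.51 ± 0.11. The interactions with IFNb, TNFa and IFNb with TNFa called none of 9 (all genes 0.512%, 0.0341% and 0.913%). At an unadjusted p under 0.05 there were 0, 1 and 0 members, and DESeq2 called none among the members for which it gave an adjusted p. About as much of both Tnfaip3 values comes from its uncalled difference under vehicle (-0.95 ± 0.42, adjusted p = 0.219; 0.317, 1.46 and 1.18 CPM in Ptpn2ko cells against 1.78, 1.56 and 2.14) as from the difference under treatment (0.96 and 0.94). Under IFNg its call (adjusted p = 0.0481) ended without any 1 of 7 libraries, control vehicle replicate 1 or 3, Ptpn2ko vehicle replicate 1, and replicates 1 and 2 under IFNg of either genotype (1.44 to 2.01), as well as by DESeq2 (adjusted p = 0.0909), with no filter on low counts (0.0862) and with the replicate block (0.056). The call of Nfkbie under IFNg ended without control vehicle replicate 2, Ptpn2ko vehicle replicate 3, control IFNg replicate 1 or Ptpn2ko IFNg replicate 3 (adjusted p = 0.0599 to 0.0782), and with no filter on low counts (0.0523). That of Birc3 under IFNg with TNFa ended without any 1 control vehicle library, Ptpn2ko vehicle replicate 1, control replicate 3 or Ptpn2ko replicate 1 of the pair (0.57 to 0.76), by DESeq2 (0.70) and with no filter on low counts (0.70). Without the libraries that stand apart, Nfkbia under IFNg (0.53 against 0.499 and an adjusted p of 0.103 with all libraries) and Nfkb1 under IFNb with IFNg (0.48 against 0.225 and 0.123) were called as well.

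The pathway lists were compared between the genotypes as well. Under IFNg with TNFa 20.8% and under IFNb with IFNg 19.2% of all genes were called lower, beside the shares called higher given above. Under IFNg with TNFa, target genes outside the family were higher in Ptpn2ko cells in 11 of 13, with 1 lower (median 1.15), among them the cytokine and chemokine genes Ccl2 (3.32 ± 0.25), Il6 (2.93 ± 0.56), Tnf (2.36 ± 0.44) and Cxcl1 (2.10 ± 0.41). Tnf, the gene of the cytokine itself, stood at 0.753 CPM on average in control and 4.02 in Ptpn2ko cells, 12 and 64 counts over the groups. Receptor, adaptor and kinase genes were higher in 9 of 18, with 1 lower (Ripk1 0.81 ± 0.06, the lymphotoxin receptor gene Ltbr 0.57 ± 0.06), and other family members and inhibitors in 5 of 11, with 1 lower, the ubiquitin ligase gene Pdlim2 at -0.98 ± 0.10. Under IFNg the same lists had 7 of 13, 7 of 18 and 6 of 11 higher and none lower. Under IFNb with IFNg they had 5 higher and 2 lower of 13 (Lif -1.32 ± 0.43), 9 higher and 2 lower of 18, and 4 higher and 1 lower of 11, with medians of 0.445, 0.176 and 0.194 (all genes -0.00811). Under vehicle 1 gene was higher, the ribonuclease and ubiquitin-binding gene N4bp1 (0.27 ± 0.08, adjusted p = 0.034). Under IFNb and under IFNb with TNFa none of the 3 lists held a call, and under TNFa 1 gene was lower.

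Across the 14 B16 group means of log2 CPM, which share libraries of the same sequencing and depth, the genes with the most similar profiles were named as a description, out of 11033 genes. Relb and Nfkb2 were each other's nearest (Pearson r = 0.991), Nfkbia and Nfkbie correlated at 0.984, and Bcl3 and Birc3 at 0.977. Nfkbie was nearest to Tnfrsf9 (0.988), Rela to Sfn (0.981), Nfkbib to Anxa2 (0.977), Tnfaip3 to Hspg2 (0.961) and Nfkb1 to Degs1 (0.955). Nfkb1 followed no other member (r from -0.351 with Bcl3 to 0.31 with Nfkb2). The trend on transcript length, whose removal turned the sign of Nfkb1 under TNFa, was left in these means. Ranked by group mean, the order also differed: Bcl3 and Birc3 were highest in Ptpn2ko and then control cells under IFNg with TNFa, both separated from their neighbours. Relb means under TNFa alone (Ptpn2ko 103, control 99.9 CPM) and in Ptpn2ko cells under IFNg with TNFa (109) came from overlapping libraries. At the low end of Relb, IFNg, IFNb and IFNb with IFNg in control cells (7.19 to 9.14 CPM) and IFNb in Ptpn2ko cells (8.98) overlapped one with the next.

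The human lines received IFNg without TNFa, and each was fitted alone. HT29 colon cells raised 9 of the 10 members and lowered none (all genes 30.8% higher and 28.7% lower; medians 1.83 and -0.0047). TNFAIP3 went from 2.12 and 1.70 CPM to 40.1 and 36.1 (4.31 ± 0.19, 19.9-fold) and BIRC3 from 17.3 and 14.8 to 336 and 317 (4.35 ± 0.07, 20.4-fold). RELB (19.8 and 17.9 to 90.7 and 84.0 CPM; 2.21 ± 0.09), NFKB2 (2.06 ± 0.09), NFKBIE (1.85 ± 0.14), NFKBIA (38.0 and 35.2 to 122 and 134 CPM; 1.81 ± 0.08) and BCL3 (1.34 ± 0.11) rose as well. Subunit and feedback genes thus rose together in HT29, with RELA (0.71 ± 0.06) and NFKBIB (0.28 ± 0.08) changing less and NFKB1 not called (-0.08 ± 0.06). Targets and inhibitors outside the members rose too, in 11 of 16 with 1 lower (ICAM1, an adhesion gene, 6.43 ± 0.08) and in 8 of 12 (CYLD 2.36 ± 0.09, TNIP1 1.998 ± 0.06). So did 15 of 19 receptor, adaptor and kinase genes (the NF-kB-inducing kinase gene MAP3K14 1.59 ± 0.14).

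A549 lung cells raised 6 and lowered 1 (all genes 23.9% higher and 23.7% lower; medians 0.3 and -0.00345). The non-canonical pair led, NFKB2 from 30.4 and 36.9 CPM to 97.3 and 96.9 (1.52 ± 0.08) and RELB from 11.2 and 12.6 to 30.6 and 31.8 (1.39 ± 0.14). BIRC3 rose from 78.8 and 83.2 CPM to 119.8 and 130.0 (0.62 ± 0.06) and RELA by 0.35 ± 0.06. In these cells RELB and NFKB2 moved in the opposite direction to their mouse counterparts in B16 under IFNg, as values set side by side. The smaller changes of NFKBIB (0.30 ± 0.08), NFKB1 (0.27 ± 0.09) and BCL3 (-0.25 ± 0.08) were not called in some fits: NFKBIB without control IFNg replicate 1 (0.22), NFKB1 without control vehicle replicate 1 (0.22) and BCL3 without either of these libraries (-0.16 in each). DESeq2 called neither NFKB1 (0.27, adjusted p = 0.111) nor BCL3 (-0.24, adjusted p = 0.131).

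In MelJuSo melanoma cells 2 members were higher and 1 lower (all genes 6.32% and 5.18%; medians -0.0441 and 0.00135). TNFAIP3 stood at 63.3, 60.4 and 64.3 CPM under vehicle and 76.2, 83.1 and 77.5 under IFNg (0.33 ± 0.06). BCL3 (0.77 ± 0.21) and NFKBIE (-0.33 ± 0.09) were called too, but BCL3 not without control IFNg replicate 2 or vehicle replicate 3 (0.62 and 0.66), NFKBIE not without vehicle replicate 1 (-0.30), and neither by DESeq2. In A375 both genotypes were averaged, so that the result does not depend on which vehicle group is which. There IFNg raised 8 members and lowered none (all genes 36.6% higher; medians 0.421 and 0.00572), with BIRC3 1.05 ± 0.08, BCL3 0.95 ± 0.10, NFKBIB 0.86 ± 0.08 and RELA 0.66 ± 0.03. From the libraries labelled control alone, only NFKBIB and RELA of these 8 stayed called higher. BIRC3 (-0.39, adjusted p = 0.00663) and NFKBIA (-0.28, adjusted p = 0.0302) turned their direction.

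**Figure D5:**
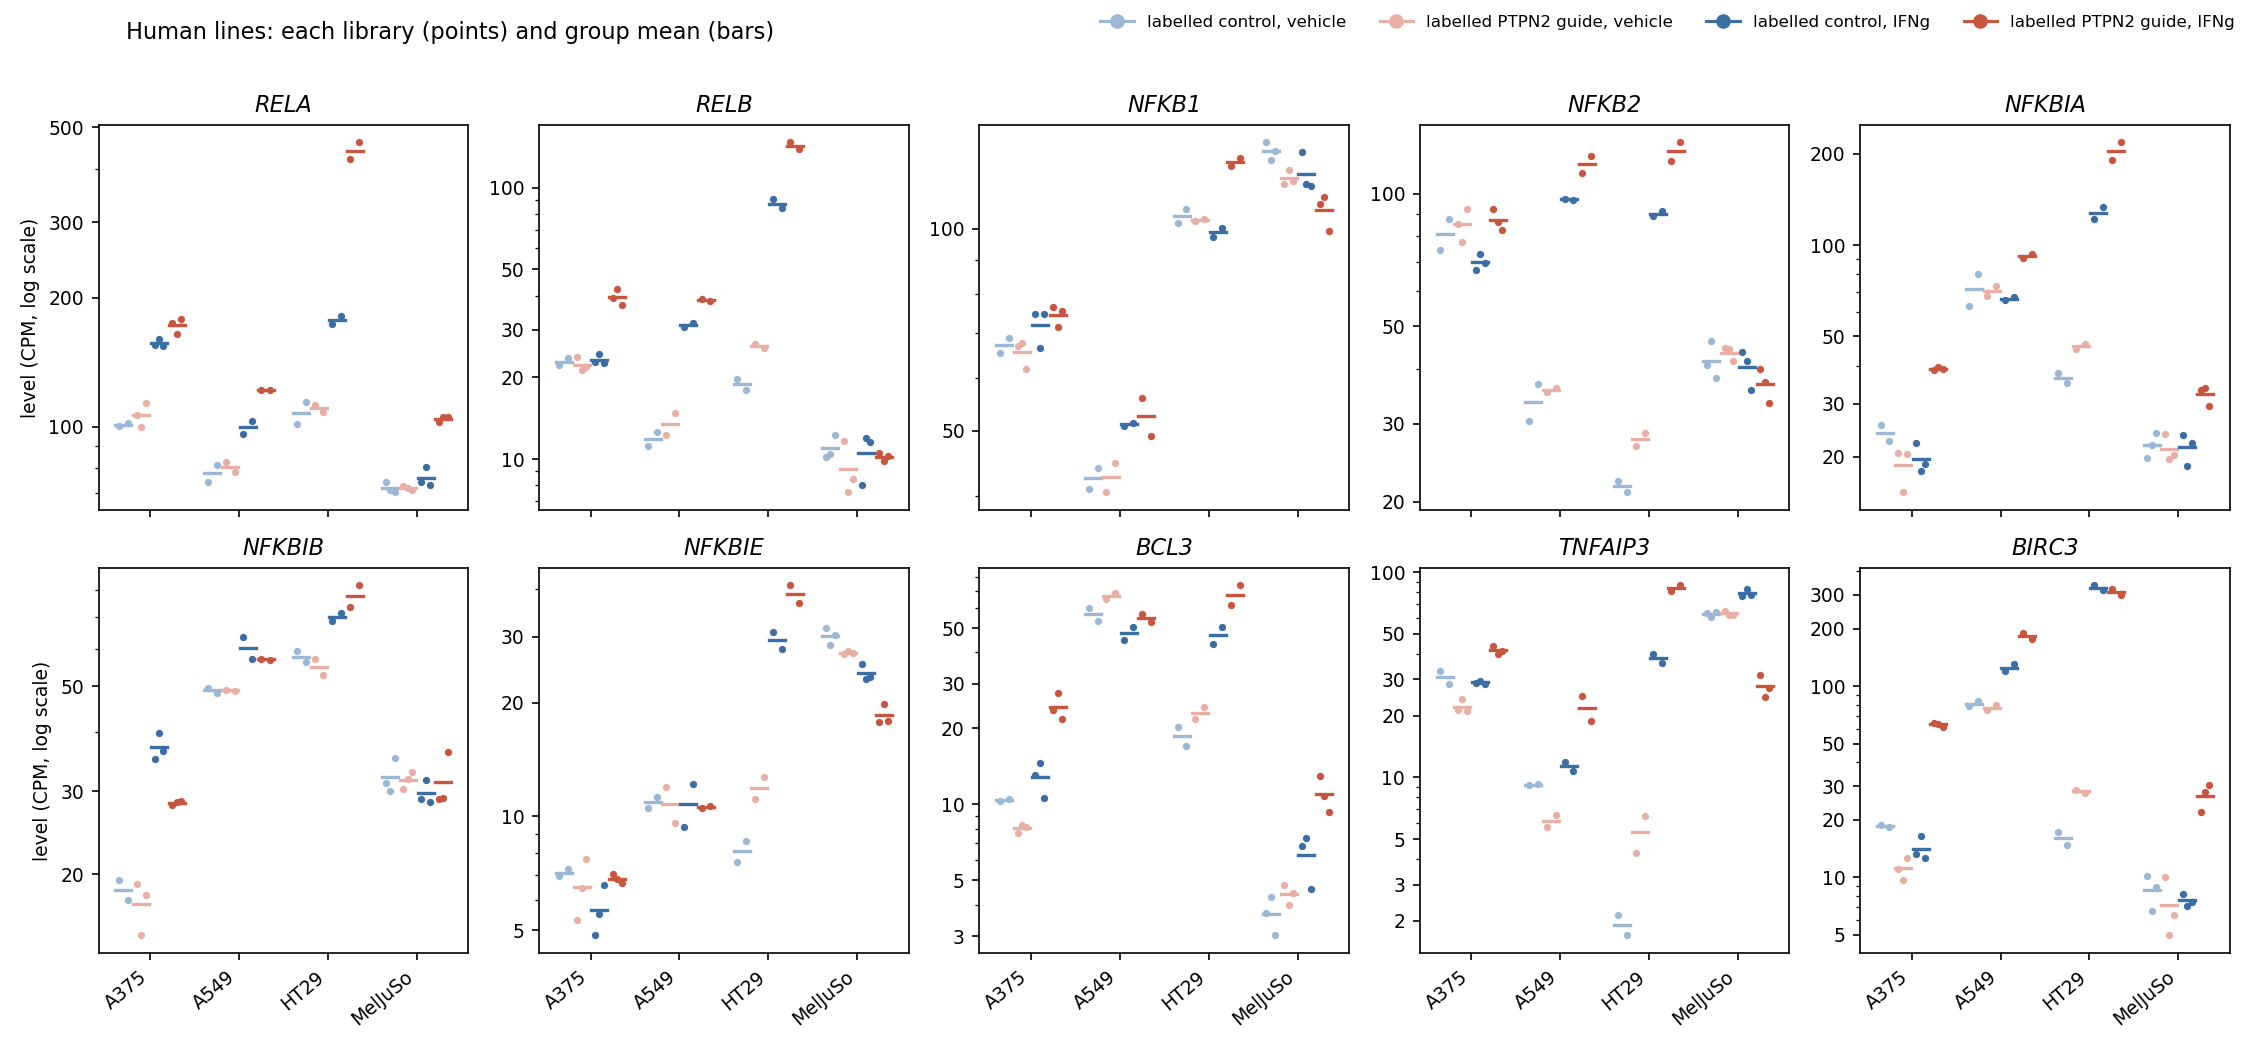
CPM on a log axis of each member in the 39 human libraries, by line (x axis) and labelled group (colours), with 1 point per library and a bar at each group mean. In HT29 TNFAIP3 runs from 1.70 to 86.1 CPM, and RELA in HT29 Ptpn2ko cells under IFNg sits at 421 and 460.4 CPM, above every other library of that line.

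In each human line more members were called between the labelled genotypes under IFNg than under vehicle, and so were more of all genes. The shares over all genes stand beside the members' counts of each line. In A549 Ptpn2ko cells 6 of 10 were higher under IFNg and none lower (all genes 13.0% higher). TNFAIP3 went from 11.9 and 10.7 CPM in control to 24.8 and 18.8 in Ptpn2ko cells (0.95 ± 0.15) and BIRC3 from 119.8 and 130.0 to 190.3 and 176 (0.55 ± 0.05). NFKBIA went from 65.9 and 67.3 to 90.8 and 93.4 (0.47 ± 0.07), and RELA (0.29 ± 0.06), NFKB2 (0.27 ± 0.06) and RELB (0.31 ± 0.10) differed less. The RELB call ended without control IFNg replicate 1 or 2 or Ptpn2ko IFNg replicate 1 (0.28, 0.33 and 0.29), and neither RELB nor NFKB2 was called by DESeq2. Under vehicle none of 10 was called (all genes 2.95%), and 2 had an unadjusted p under 0.05. DESeq2 called none there, but over the A549 comparisons it gave an adjusted p for only 31 of 40 tests of members. The interaction called 3 members, TNFAIP3 1.54 ± 0.26, BIRC3 0.63 ± 0.08 and NFKBIA 0.49 ± 0.10 (all genes 6.36% higher), that of NFKBIA not without control vehicle replicate 2 (0.30, adjusted p = 0.0774). Part of the TNFAIP3 value comes from its uncalled difference under vehicle (5.71 to 6.58 CPM in Ptpn2ko cells, 9.16 to 9.26 in control cells). DESeq2 gave no adjusted p for the TNFAIP3 interaction.

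In HT29 6 members were already higher in Ptpn2ko cells under vehicle (all genes 12.5% higher). TNFAIP3 stood at 4.30 and 6.50 CPM against 2.12 and 1.70 (1.48 ± 0.29), BIRC3 at 28.7 and 27.7 against 17.3 and 14.8 (0.82 ± 0.11) and RELB at 26.6 and 25.6 against 19.8 and 17.9 (0.47 ± 0.11). The others, NFKBIE (0.55 ± 0.17), NFKB2 (0.35 ± 0.11) and NFKBIA (0.34 ± 0.09), were not called without control vehicle replicate 1 (NFKBIE, adjusted p = 0.133), control vehicle replicate 2 (NFKB2 and NFKBIA, 0.123 and 0.0727) or Ptpn2ko vehicle replicate 2 (NFKBIE and NFKB2, 0.131 and 0.108). DESeq2 did not call NFKBIE and NFKB2 either (adjusted p = 0.0911 and 0.0807). Under IFNg 8 were higher (all genes 21.3%). First came RELA, at 421 and 460.4 CPM against 173 and 181 (1.31 ± 0.05, 2.48-fold, adjusted p = 5.18e-31), where vehicle libraries of both genotypes held 101 to 114. TNFAIP3 (81.0 and 86.1 against 40.1 and 36.1 CPM; 1.13 ± 0.09), RELB (0.71 ± 0.06), NFKBIA (191 and 218 against 122 and 134 CPM; 0.67 ± 0.06), BCL3 (0.52 ± 0.09), NFKB2 (0.46 ± 0.07), NFKBIE (0.42 ± 0.10, not called by DESeq2) and NFKB1 (0.35 ± 0.06) followed. BIRC3 was about as high in both genotypes (321 and 301 against 336 and 317 CPM; -0.07 ± 0.05). The interaction was positive for RELA (1.28 ± 0.08), NFKB1 (0.37 ± 0.09) and NFKBIA (0.33 ± 0.11) and negative for BIRC3 (-0.89 ± 0.12), where 7.37% and 11.8% of all genes were called higher and lower. The NFKBIA call ended without any of 4 libraries (0.26 to 0.30), control IFNg replicate 1, control vehicle replicate 1, Ptpn2ko IFNg replicate 2 and Ptpn2ko vehicle replicate 1, and by DESeq2 (0.36, adjusted p = 0.106).

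In MelJuSo 4 members were higher and 3 lower in Ptpn2ko cells under IFNg, not far from the shares over all genes (25.5% and 25.7%). BIRC3 stood at 22.1, 27.9 and 30.3 CPM against 8.14, 7.10 and 7.48 in control cells (1.81 ± 0.14, adjusted p = 1.2e-19), and RELA at 102, 105 and 105 against 74.3, 80.5 and 73.1 (0.46 ± 0.05). BCL3 (13.0, 10.8 and 9.28 against 6.83, 7.35 and 4.62 CPM; 0.82 ± 0.17) and NFKBIA (0.59 ± 0.10) were higher as well. TNFAIP3 went the other way, at 31.4, 24.6 and 27.3 CPM against 76.2, 83.1 and 77.5 (-1.51 ± 0.07, 0.352-fold, adjusted p = 9.69e-38), as did NFKBIE (-0.37 ± 0.10) and, except without control IFNg replicate 1 (-0.12), NFKB1 (-0.17 ± 0.05). The A20 transcript was thus lower in the MelJuSo Ptpn2ko libraries under IFNg than in any other MelJuSo library. Under vehicle none was called (all genes 1.64%), and 2 had an unadjusted p under 0.05. DESeq2 called none there, but over the MelJuSo comparisons it gave an adjusted p for only 32 of 40 tests of members. The interaction called BIRC3 (2.19 ± 0.23), NFKBIA (0.65 ± 0.14) and RELA (0.46 ± 0.08) higher and TNFAIP3 (-1.51 ± 0.10) lower (all genes 16.6% and 18.8%).

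In A375 the libraries labelled Ptpn2ko differed from those labelled control in 8 members under IFNg, 7 higher and 1 lower (all genes 25.8% and 25.0%). There PTPN2 itself was lower in the libraries so labelled (11.3, 12.7 and 13.6 against 22.8, 19.2 and 17.2 CPM). BIRC3 stood at 64.2, 63.7 and 61.2 CPM against 13.2, 16.4 and 12.6 (2.15 ± 0.09), NFKBIA at 38.8, 39.6 and 38.9 against 22.3, 17.9 and 19.0 (0.98 ± 0.09) and BCL3 at 23.7, 27.7 and 21.9 against 13.1, 14.6 and 10.6 (0.90 ± 0.12). RELB (0.75 ± 0.09), TNFAIP3 (0.52 ± 0.08), NFKB2 (0.31 ± 0.06) and RELA (0.14 ± 0.04) were higher and NFKBIB (-0.39 ± 0.09) lower. In the vehicle libraries, whose PTPN2 levels run against the labels, 3 members were lower in those labelled Ptpn2ko (all genes 8.73% lower). They were BIRC3 (-0.74 ± 0.14), TNFAIP3 (-0.48 ± 0.11) and NFKBIA (-0.36 ± 0.12), the last not without control vehicle replicate 2 or Ptpn2ko vehicle replicate 2 (-0.27 and -0.23) or by DESeq2 (adjusted p = 0.121). NFKBIA was called higher in Ptpn2ko cells under IFNg in A549, HT29 and MelJuSo, by 0.47 to 0.67, and in B16 (0.51). Whether the lines differ in these responses was not tested, since each was fitted alone.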

How the data were processed

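The authors deposited whole-number read counts per gene, 1 table per cell line, with gene symbols and no length. Per the labels' protocols, poly(A) RNA was made into libraries with the NEB Ultra-Directional kit and sequenced in paired 37-bp reads. Tools named in the submitters' processing notes are HTSeq 0.6.1p1, DESeq2, Bowtie2 2.2.4, Trimmomatic 0.33 and bcl2fastq 2.17.1.14, and the builds hg19 and mm10. The annotation is not given in the sources used here, nor is the strand setting.

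From these counts, each line was fitted alone with edgeR 4.0.16 (R 4.3.3): genes were filtered by filterByExpr on groups, libraries scaled by TMM, and a robust quasi-likelihood test was run with 1 mean per group, Benjamini-Hochberg adjustment over all genes tested and a threshold of 0.05. Tests were of each treatment against vehicle in control cells, Ptpn2ko against control in each treatment, the interaction of the 2, and the departure of a pair from the sum of its parts. In A375 treatment was tested over both genotypes averaged. CPM are counts after TMM scaling to a common depth; errors are standard errors, the fold change over the root of the test's F, and are too small for genes with few counts. Folds against a group at 0 use a floor of 3 counts over the group; floors cover counting error only. The filter left 12271 MelJuSo, 12555 HT29, 13172 A549, 13410 A375 and 11726 B16 genes. Replicates of a group differed by 1.15 to 6.62 in chi-square per gene, above sampling noise, so none was counted as a duplicate.

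The text gives every member with values by role. The other pathway genes it names are among the 4 with the largest called change in their list and comparison; the lists were receptors, adaptors and kinases (20 genes), other Rel and IkB family genes with ubiquitin-linked inhibitors (13) and target genes outside the family (20). Members and lists were chosen with earlier results of these data known. Same-numbered replicates deviated together with r from -0.346 to 0.383 in B16, with 14 of 273 pairs above 0.1, and at most 0.0576 in the human lines, so numbers were not taken to pair libraries. In HT29, however, r was 0.0129 to 0.0451, and 8 of 8 libraries deviated most like a library of their own number. The same held for 7 of 11 libraries in A375, 8 of 12 in MelJuSo, 4 of 8 in A549 and 13 of 42 in B16. The replicate block changed no call of a member in HT29. Alternatives were DESeq2 1.42.0, its size factors in edgeR, no filter on low counts, a fit on only the compared groups, the replicate number as a block, each library left out in turn, and, for A375, the libraries labelled control alone. A pair was added after seeing the data: the B16 trend on transcript length removed, and the 5 B16 libraries that stand apart left out. A library stands apart where its chi-square to both others of its group is at least 1.5 times theirs to each other.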

Additional observations from a re-analysis of the deposited data

Results flagged for a closer look

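These members had a genotype difference under treatment that differed from that under vehicle, by edgeR's interaction test, on the log2 scale. In B16 under IFNg they were Relb (1.33, adjusted p = 4.76e-06), Nfkb2 (0.57, adjusted p = 0.00012), Nfkbie (0.49, adjusted p = 0.0223) and Tnfaip3 (1.91, adjusted p = 0.0481), and under IFNb with IFNg Relb (1.07) and Nfkb2 (0.51). Under IFNg with TNFa they were Tnfaip3 (1.89), Nfkbia (0.72), Birc3 (0.69), Relb (0.60), Nfkbib (0.57), Nfkbie (0.50) and Nfkb2 (0.31). These 3 B16 sets share the vehicle libraries of both genotypes. The IFNg values of Nfkbie and Tnfaip3 and the Birc3 value passed the threshold narrowly and not in every fit that left out 1 library.

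In human cells under IFNg the same test picked out NFKBIA (0.49), TNFAIP3 (1.54) and BIRC3 (0.63) in A549, with TNFAIP3 at an adjusted p of 2.67e-07. In HT29 it picked out RELA (1.28, adjusted p = 1.78e-20), NFKB1 (0.37), NFKBIA (0.33) and, in the negative direction, BIRC3 (-0.89, adjusted p = 3.11e-08). In MelJuSo it picked out BIRC3 (2.19, adjusted p = 6.82e-13), NFKBIA (0.65), RELA (0.46) and, in the negative direction, TNFAIP3 (-1.51, adjusted p = 7.9e-27). The NFKBIA call in A549 was lost without control vehicle replicate 2. That in HT29 (adjusted p = 0.0251) was lost in 5 of 13 other fits, DESeq2 among them. Whether the lines differ from one another was not tested.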

How the results depend on the processing

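Of 177 calls of members, 140 held in every alternative run for them and 37 were lost in 1 or more. The counts of members called that moved by more than 1.5 times were the genotype by IFNg interaction in B16 (4, and 2 with no filter on low counts), the departure of IFNb with TNFa (6, and 3 by DESeq2), genotype under vehicle in B16 (1, and 0 with only the compared groups in the fit), IFNg in A375 (8, and 5 from the libraries labelled control) and IFNg in MelJuSo (3, and 1 by DESeq2). With 1 library left out, these 5 counts of members ranged from 2 to 4, 3 to 5, 0 to 1, 8 to 9 and 2 to 4. The count of 0 for genotype under vehicle arose because Bcl3, the member called there, was not tested with only the compared groups in the fit. Directions turned with the length trend removed for Nfkb1 under TNFa (0.24) and in the departure of IFNb with IFNg (0.083), and in the A375 libraries labelled control for NFKBIA (-0.28), TNFAIP3 (-0.082) and BIRC3 (-0.39); the cause was not tested. The replicate block lost the Tnfaip3 interaction under IFNg (1.91, adjusted p = 0.056) and the Nfkb2 departure of IFNb with TNFa (0.26, adjusted p = 0.0506), gained Nfkbib under IFNg between genotypes (0.23, adjusted p = 0.0472) and NFKB2 in A375 (-0.09, adjusted p = 0.0473), and changed no other call of a member. Over all genes in B16, with only the compared groups in the fit the calls between genotypes went from 360 to 1357 under vehicle, 65 to 156 under IFNb, 70 to 124 under IFNb with TNFa and 4504 to 2164 under IFNb with IFNg, and the interactions from 60 to 591 (IFNb), 4 to 1 (TNFa), 107 to 582 (IFNb with TNFa) and 1810 to 1092 (IFNb with IFNg). Without the libraries that stand apart the same counts were 1099, 104 and 135 under vehicle, IFNb and IFNb with TNFa, and 249, 7, 366 and 3500 for the interactions. With no filter they were 310 between genotypes under TNFa (110 in the main setting) and 115, 21 and 186 for the interactions with IFNb, TNFa and IFNb with TNFa; for TNFa it was 2 by DESeq2 or its size factors and 8 with the length trend removed. In human lines DESeq2 called fewer genes under IFNg in A549 (3965 against 6272) and MelJuSo (785 against 1412), between genotypes under vehicle in A375 (1516 against 2831), A549 (91 against 388), HT29 (1265 against 2653) and MelJuSo (113 against 201, with 311 under the replicate block and 366 with only the compared groups), between genotypes under IFNg in A549 (1437 against 3197) and HT29 (3241 against 5258), and for the interaction in A549 (500 against 1486) and HT29 (1169 against 2403). Depth limits Tnfaip3 and Bcl3 in B16, which held 12 counts or fewer over some groups.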
